A study of Mus musculus with 8 samples.

Results

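The genes of the major histocompatibility complex (MHC) were followed through RNA-seq of RAW macrophages, together with the genes that load, chaperone and switch on MHC molecules. Members were all symbols that begin with H2-, the mouse name of the complex, and B2m, Ciita, Cd74, Tap1, Tap2, Tapbp and Nlrc5. This gave 50 genes of the 24421 in the deposited tables, 43 of them H2- symbols and 7 of them the others. The rule used names only and no measured value. RAW cells are an established macrophage-like line from BALB/c mice, and every group comes from this 1 line. Untreated cells (ctl) carried no treatment in the labels. MCD cells had 5 mM methyl-β-cyclodextrin, a ring sugar that pulls cholesterol from membranes, for 1 h in medium with albumin. LPS cells had 100 ng/ml lipopolysaccharide, a bacterial ligand of the receptor TLR4, for 3 h in medium with albumin. MCD-LPS cells had both, and by the study's methods MCD was washed off before LPS was added. By that order MCD was not in the medium with LPS, and MCD and MCD-LPS cells were harvested at different times after MCD. Each group had 2 libraries, and the study's methods give albumin medium for treatments and water as the negative control of MCD.

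MHC class I molecules sit on nearly all nucleated cells and show peptides from inside the cell to CD8+ T cells. A class I molecule is a heavy chain (H2-K1, H2-D1 and, in some strains, H2-L) bound to β2-microglobulin, the light chain encoded by B2m. Tap1 and Tap2 form the pump that moves peptides into the endoplasmic reticulum, and tapasin (Tapbp) holds empty class I molecules beside it. Class II molecules (H2-A and H2-E) show peptides from engulfed material to CD4+ T cells and are made mainly by professional antigen-presenting cells. The invariant chain, encoded by Cd74, escorts class II, H2-DM exchanges its peptide, and H2-O restrains H2-DM. CIITA is the master switch of class II genes, and NLRC5 is its counterpart for class I genes. Interferon-γ is the classical inducer of both classes in macrophages.

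Of 10 macrophage markers, 9 passed the filter on low values and Mertk, at 0 to 0.159 CPM (reads per 1000000 reads in genes), did not. Their sum was 9840 to 14287 CPM, most of it Lyz2 (5223 to 9491 CPM). With LPS the markers went both ways. Cd68 was at 751 and 758 CPM in ctl and 421 and 416 CPM in LPS libraries. Adgre1 was at 162 in both ctl and 105 and 103 in LPS libraries. Itgam was higher, at 211 and 210 CPM in ctl and 743 and 733 in LPS, and Lyz2 at 5470 and 5829 against 9009 and 9491. Fcgr1 was 1.25-fold and Cd14 1.21-fold higher in LPS than in ctl libraries. Csf1r, Spi1 and Ptprc were at 0.94, 0.94 and 0.89 of their ctl level. The part of these shifts in the LPS levels below was not tested. B cell markers summed to 0.0518 to 0.294 CPM, with 6 of 9 at 0 in all 8 libraries (Ms4a1, Pax5 and Ebf1 among them) and the other 3 under the filter. Dendritic cell markers summed to 2.25 to 3.63 CPM, with Cd209a at 0 in all 8 libraries and 7 of 9 under the filter. T and NK cell markers summed to 3.31 to 5.23 CPM, nearly all of it Lck, with Cd3g, Cd8a and Klrb1c at 0. Libraries held 38645458 to 48436956 reads in genes. The LPS replicates stood further apart than the others, with an SD of their log2 ratio over genes of 0.246 against 0.179 to 0.189, and their Tnf levels were 712 and 1635 CPM. Tnf was at 74.8 and 72.4 CPM in ctl, 667 and 781 in MCD, and 708 and 555 in MCD-LPS libraries. Il6 was at 0 to 0.0518 CPM in all 8 libraries and Ifng at 0. In bulk RNA, fewer cells of a type and less RNA per cell cannot be told apart. No label states that replicates are separate cultures, so the p-values rest on a spread that may be technical.

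The control regions of these genes are shown first, because the genes are known for sharing them. Class I promoters carry enhancer A, which binds NF-κB, then a site for interferon regulatory factors (ISRE), then the SXY module. Class II promoters carry the SXY module, in which the X box binds the RFX complex and CREB/ATF proteins and the Y box binds NF-Y. RefSeq start sites on GRCm38.p6 were found for 34 of the 50 members, and the 250 bases before each start were searched on both strands. The sequences below are from that reference, not from RAW cells. They read 5′ to 3′ towards the start, and capitals mark 4 motifs: GGGATTCCC (a κB motif), TTTCACTT (an ISRE core), GATTGG (a Y box, or its reverse complement CCAATC) and TGACG (a CRE core, or its reverse complement CGTCA). No 2 motifs overlap in these windows except the pair of CRE cores in H2-Aa. B2m, H2-K1, H2-D1 and H2-T23 are shown as the light chain, the heavy chains and a nonclassical gene among those with most reads, H2-Ob because it had the largest ratio of LPS to ctl level, and H2-Aa because it holds class II motifs and was almost unread.
B2m, chr2:122147437-122147686, plus strand: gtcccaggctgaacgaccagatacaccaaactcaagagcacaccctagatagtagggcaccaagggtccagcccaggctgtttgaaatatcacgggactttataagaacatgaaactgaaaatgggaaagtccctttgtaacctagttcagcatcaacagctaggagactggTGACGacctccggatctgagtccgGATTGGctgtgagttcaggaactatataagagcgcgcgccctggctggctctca
H2-K1, chr17:34000348-34000597, minus strand: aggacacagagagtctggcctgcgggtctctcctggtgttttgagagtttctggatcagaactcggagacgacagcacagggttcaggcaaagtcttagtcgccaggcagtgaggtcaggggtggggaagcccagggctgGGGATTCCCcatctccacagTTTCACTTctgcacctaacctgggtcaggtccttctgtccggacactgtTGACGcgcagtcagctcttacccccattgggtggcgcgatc
H2-D1, chr17:35262844-35263093, plus strand: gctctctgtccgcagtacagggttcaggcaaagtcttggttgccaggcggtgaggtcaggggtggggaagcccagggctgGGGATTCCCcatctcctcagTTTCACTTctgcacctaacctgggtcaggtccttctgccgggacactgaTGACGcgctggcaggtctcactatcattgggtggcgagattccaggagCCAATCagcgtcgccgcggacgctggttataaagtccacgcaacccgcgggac
H2-T23, chr17:36032702-36032951, minus strand: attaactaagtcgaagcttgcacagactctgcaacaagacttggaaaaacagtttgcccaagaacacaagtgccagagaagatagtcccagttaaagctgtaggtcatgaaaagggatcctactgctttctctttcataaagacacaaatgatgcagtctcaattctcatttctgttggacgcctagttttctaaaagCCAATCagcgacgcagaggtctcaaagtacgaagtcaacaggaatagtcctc
H2-Ob, chr17:34238655-34238904, plus strand: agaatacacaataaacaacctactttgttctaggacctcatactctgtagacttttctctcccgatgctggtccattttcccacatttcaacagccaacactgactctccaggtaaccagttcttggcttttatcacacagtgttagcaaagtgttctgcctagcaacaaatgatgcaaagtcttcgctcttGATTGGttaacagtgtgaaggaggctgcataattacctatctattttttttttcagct
H2-Aa, chr17:34287824-34288073, minus strand: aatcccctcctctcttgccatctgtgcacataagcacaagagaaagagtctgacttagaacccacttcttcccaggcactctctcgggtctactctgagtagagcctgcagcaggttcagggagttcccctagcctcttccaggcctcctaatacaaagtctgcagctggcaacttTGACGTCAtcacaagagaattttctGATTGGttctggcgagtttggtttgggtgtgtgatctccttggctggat
The κB motif begins at −110 in H2-K1 and −170 in H2-D1, counted from the start site, and the ISRE core follows at −90 and −150. On the strand shown, the Y box letters GATTGG begin at −54 in B2m, −58 in H2-Ob and −49 in H2-Aa. In H2-D1 at −53 and H2-T23 at −52 the match is the reverse complement CCAATC. Whether that match is the Y box of the SXY module was not tested. The H2-K1 window shown has no exact match, and a second start site of H2-K1 gives a window with CCAATC at −6. After the CRE core, H2-K1 and H2-D1 both hold cattgg, which differs from GATTGG in its first letter only. The search did not count it, so a window with no match need not lack a Y box.

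Each of these motifs lay in a larger share of the members with a window than of all genes. The κB motif lay in 4 of 34 members (H2-K1, H2-D1, H2-Q6 and H2-Q7) against 0.352% of 27025 genes. The ISRE core lay in 9 members, all class I or class I-like, against 1.62% of genes. The Y box letters lay in 27 members against 16.6% of genes, and matches on either strand were counted alike. They lay in all 8 class II genes with a window that encode chains or exchange factors. The CRE core lay in 14 members against 19.8% of genes, but in only 1 of the 8 class II genes (H2-Aa). Members are copies of one another, so their windows are not independent, and a match is letters in a window and not a site in use. H2-Q6 and H2-Q7 hold the same κB letters as H2-K1 and H2-D1 and were at 0 in all 8 libraries. Zeros of such near copies are uncertain, as the next paragraph explains.

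Of the 50 members, 26 passed the filter (10 or more in at least 2 libraries of the same table, on the scale of the deposited values), 24 of them in both tables. Ciita passed only in the table of ctl and MCD, and H2-Ob only in that of LPS and MCD-LPS. The other 24 included 15 at 0 in all 8 libraries, namely H2-Eb2, H2-M5, H2-M9, H2-M11, the H2-M10 genes (6), H2-Q6 to H2-Q9 (4) and H2-T9. The last 9 (H2-Aa, H2-DMb1, H2-Ea-ps, H2-Eb1, H2-L, H2-M1, H2-M2, H2-T22 and H2-T3) had at most 6 reads in a library. A library with no read of a gene could still hold up to 0.0619 to 0.0776 CPM of it (3 counts, counting error only). In mm10, 42 of the 46 annotated members lie on chromosome 17 between 33915899 and 37483552, with B2m on chromosome 2, Ciita on 16, Cd74 on 18 and Nlrc5 on 8. The reference is the C57BL/6J haplotype (H-2b) and RAW cells carry H-2d, and class I genes are near copies. Reads of one class I gene may therefore be counted under another or under none. The values of single H2-K, D, L, Q and T genes, zeros included, are uncertain.

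The question of the first comparison was whether taking cholesterol out of resting macrophages moves MHC genes. For 24 of the 25 members tested it did not move them past the threshold. H2-K2, a transcribed class I pseudogene beside H2-K1, was the only member that rose.

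The main class I genes stayed within a few percent of their ctl level after MCD, with no call. B2m was at 692 and 709 CPM in ctl and 668 and 684 CPM in MCD libraries, a log2 fold change of −0.04 (SE 0.04, limma adjusted p = 0.756). The heavy chain H2-K1 was at 234 and 239.5 CPM in ctl and 245 and 252 in MCD (0.07, SE 0.04, adjusted p = 0.608). H2-D1, the other heavy chain, was at 174 and 178 CPM in ctl and 173 in both MCD libraries (−0.02, SE 0.04, adjusted p = 0.935). The ctl and MCD pairs of all 3 lay close together, with B2m and H2-D1 slightly lower after MCD and H2-K1 slightly higher. Tap1 was at 32.3 and 34.8 CPM in ctl against 32.8 and 30.9 in MCD (−0.07, SE 0.07), and Tap2 at 32.3 and 34.1 against 34.3 and 33.8 (0.04, SE 0.05). Tapbp, more abundant than either, was at 244 and 251 CPM against 253 and 248 (0.03, SE 0.04). Adjusted p-values of these 3 were 0.806, 0.839 and 0.884. Nlrc5, the class I transactivator, was at 30.6 and 28.7 CPM in ctl and 28.9 and 29.2 in MCD libraries (−0.02, SE 0.08, adjusted p = 0.956). The ctl and MCD ranges overlapped for Tap1, Tap2, Tapbp and Nlrc5.

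**Figure D1:**
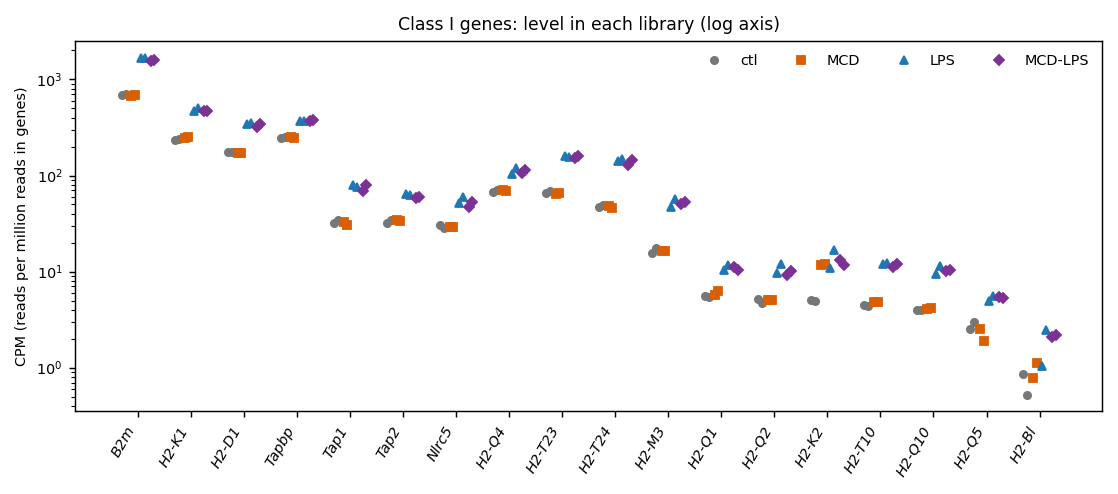
Level of each measured class I gene in each of the 8 libraries, in CPM on a log axis, 2 points per group. B2m runs from 668 to 709 CPM without LPS and from 1545 to 1687 CPM with LPS, and H2-K2 is the gene whose MCD points (11.7 and 12.1 CPM) lie far above its ctl points (5.11 and 4.93 CPM).

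H2-K2 is annotated as a transcribed unprocessed pseudogene at chr17:33974659-33978827 on the minus strand. It was at 5.11 and 4.93 CPM in ctl libraries and 11.7 and 12.1 CPM in MCD libraries, from 441 and 1123 reads per group. The MCD libraries lay far above the ctl libraries, and the fold change was 2.37 (log2 1.25, SE 0.16, 95% interval 0.89 to 1.61, limma adjusted p = 0.00517). The call was lost when ctl replicate 1 (log2 1.27, adjusted p = 0.0939), ctl replicate 2 (1.22, adjusted p = 0.0918) or MCD replicate 2 (1.22, adjusted p = 0.0621) was left out, with the fold change little altered. Over all alternatives the adjusted p ran from 3.8e-11 (DESeq2) to 0.0939.

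H2-K1 is the near copy from which reads could stray. Reads of H2-K2 were 2.18% and 2.06% of those of H2-K1 in ctl and 4.76% and 4.82% in MCD libraries. With H2-K1 nearly level, this ratio restates the rise of H2-K2 and is no separate measure of it, and the part of stray reads was not tested. It was 2.32% and 3.28% in LPS and 2.79% and 2.45% in MCD-LPS libraries, between the ctl and MCD values. Of 17 other tested genes within 100000 bases on either side of H2-K2, 0 were called, with log2 fold changes from −0.54 (BC051226, adjusted p = 0.279) to 0.09 (limma). None of the 17 had an adjusted p below that of BC051226. This window was chosen after the values were seen.

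**Figure D2:**
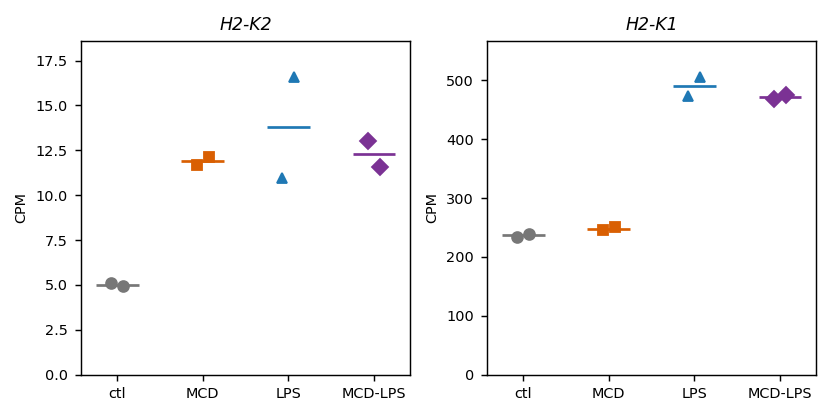
Level of H2-K2 (left) and H2-K1 (right) in CPM on linear axes that start at 0, with points for the 2 libraries of each group and a line at their mean. H2-K2 lies at 4.93 and 5.11 CPM in ctl and from 10.96 to 16.6 CPM in the other groups, and H2-K1 lies at 234 to 252 CPM without LPS and 468 to 506 CPM with LPS.

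Among the nonclassical and class I-like genes, 0 of 9 tested members were called after MCD. H2-T23 encodes Qa-1, which shows signal peptides of class I chains to NK cell receptors. It was at 65.9 and 69.5 CPM in ctl and 63.7 and 66.4 CPM in MCD libraries. H2-Q4 was at 67.6 and 70.5 CPM against 70.0 and 69.5, and H2-T24 at 46.5 and 49.7 against 48.0 and 45.7. H2-M3, which binds formylated peptides of bacteria, was at 15.6 and 17.5 CPM in ctl and 16.3 and 16.4 in MCD. The other members were low, with H2-Q1 at 5.61 and 5.50 against 5.66 and 6.21 CPM, H2-Q2 at 5.22 and 4.66 against 5.06 and 5.11, H2-Q10 at 3.95 and 3.997 against 4.11 and 4.19, and H2-T10 at 4.47 and 4.39 against 4.79 and 4.802. H2-Bl was lowest, at 0.863 and 0.525 CPM in ctl and 0.785 and 1.13 CPM in MCD libraries. H2-Bl and H2-T10 are annotated as polymorphic pseudogenes, as is H2-Q5, which was grouped with the pseudogenes. The pseudogene H2-Q5 was at 2.498 and 2.99 CPM against 2.54 and 1.91, a log2 fold change of −0.30 (SE 0.16, adjusted p = 0.565) that pointed the other way from that of H2-K2.

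Class II gave another picture of levels and the same lack of calls. Cd74 was at 357 and 356 CPM in ctl and 360.0 and 372 CPM in MCD libraries (log2 fold change 0.04, SE 0.04, adjusted p = 0.747). H2-Ab1, the only class II chain that passed the filter, was at 0.318 and 0.320 CPM in ctl and 0.495 and 0.348 CPM in MCD libraries (0.37, SE 0.32, adjusted p = 0.770). Per kilobase of exon, Cd74 stood 1111 to 3302 times above H2-Ab1 in the 8 libraries. The invariant chain was thus read in quantity in libraries with almost no reads counted under the chains it escorts. Chain reads that the H-2b reference did not capture would lower the chain counts, and their number was not measured. H2-Aa had 0 to 3 reads per library and H2-Eb1 0 to 2, and the 5 class II chain symbols together gave 0.363 to 0.854 CPM. Ciita was at 0.431 and 0.251 CPM in ctl and 0.392 and 0.435 in MCD libraries, 11 to 20 reads each (0.31, SE 0.57, adjusted p = 0.917).

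The exchange factors were low too. H2-DMa was at 6.70 and 7.35 CPM in ctl and 7.12 and 7.34 in MCD. It overlaps Brd2 on the opposite strand, which was at 423 to 505 CPM, and reads of the pair cannot be told apart without strand. H2-DMb2 was at 0.204 and 0.228 CPM against 0.310 and 0.348, and H2-Oa at 0.795 and 1.28 against 1.24 and 1.43. H2-DMb1 had 0 reads in both ctl libraries and 5 and 4 reads in the MCD libraries. It was under the filter, and was called only when no filter was used. H2-Ke6 carries the H2 prefix but encodes an enzyme of fatty acid synthesis and steroid metabolism. It was at 22.6 and 22.95 CPM in ctl and 22.4 and 23.6 in MCD libraries.

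**Figure D3:**
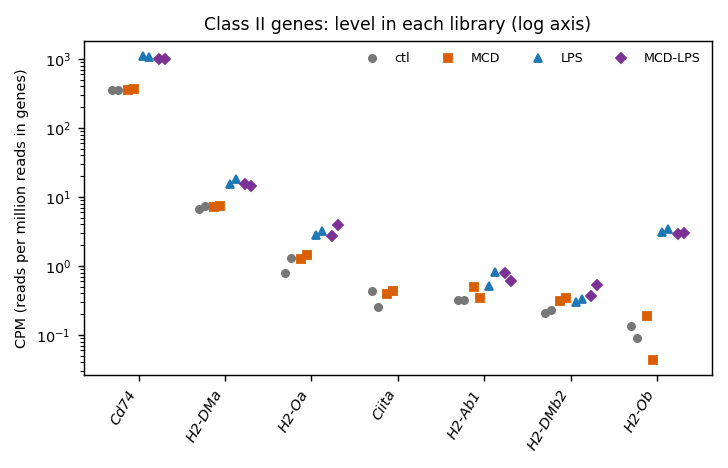
Level of each measured class II gene in each of the 8 libraries, in CPM on a log axis, 2 points per group, with values of 0 not drawn. Ciita has points only without LPS (0.251 to 0.435 CPM), and H2-Ob runs from 0.0435 to 0.186 CPM without LPS and from 2.89 to 3.39 CPM with LPS.

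By count, 1 of 25 members rose and 0 fell with MCD, against 1.08% of 11777 genes that rose and 0.034% that fell (1.11% called in all). The median log2 fold change of the members was 0.04, and that of all genes −0.00. The 24 uncalled members ran from −0.30 to 0.56, and 1 member, H2-K2, had an unadjusted p under 0.05. For the 13 members with a mean of at least 10 CPM over the ctl and MCD libraries, the 95% intervals all lay between −0.22 and 0.20 on the log2 scale. This bounds their change and does not show that there was none. Lower members had wider intervals, as wide as −0.97 to 1.60 for Ciita.

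The next comparison asked whether MCD before LPS alters the MHC genes of LPS-treated cells. There 0 of 25 members were called by limma, against 25.9% of 11976 genes (12.9% higher and 13% lower). edgeR and DESeq2 on the whole reads also called 0. At an unadjusted p under 0.05 there was 1 member, Cd74. It was at 1106 and 1075 CPM in LPS and 1003 and 1008 CPM in MCD-LPS libraries (log2 fold change −0.10, SE 0.04, limma adjusted p = 0.0736). B2m was at 1667 and 1687 CPM in LPS and 1545 and 1587 in MCD-LPS libraries (−0.08, SE 0.04, limma adjusted p = 0.145).

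The heavy chains H2-K1 and H2-D1 stayed within a few percent of their LPS level, with no call. H2-K1 was at 473 and 506 CPM in LPS and 468 and 474 in MCD-LPS libraries (−0.03, SE 0.04, adjusted p = 0.597), and H2-D1 at 343 and 350.1 against 323 and 341 (−0.04, SE 0.04, adjusted p = 0.455). Tap1 was at 79.6 and 75.9 CPM against 69.8 and 79.8 (−0.04, SE 0.07, adjusted p = 0.722). Tap2 was at 64.3 and 62.3 against 58.0 and 60.3 (−0.08, SE 0.05, adjusted p = 0.292), and Tapbp at 373 in both against 369.6 and 379.5 (0.03, SE 0.04, adjusted p = 0.644). Nlrc5 was at 52.0 and 59.0 CPM in LPS and 46.7 and 53.0 in MCD-LPS libraries (−0.13, SE 0.08, adjusted p = 0.229). Without LPS replicate 1 it was called lower (−0.23, adjusted p = 0.0497).

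H2-K2, which MCD raised in resting cells, was at 10.96 and 16.6 CPM in LPS and 13.0 and 11.6 CPM in MCD-LPS libraries. Its log2 fold change was −0.11 (SE 0.16, adjusted p = 0.658) and rested on which LPS library was kept. It was −0.42 (adjusted p = 0.017) without LPS replicate 1 and 0.19 (adjusted p = 0.221) without LPS replicate 2. The MCD effect on H2-K2 differed between the 2 backgrounds, with a difference of −1.36 on the log2 scale (with LPS minus without LPS, SE 0.23, limma adjusted p = 0.00458). That call was kept without each of the 8 libraries in turn, with a value of −1.66 without LPS replicate 1, −1.06 without LPS replicate 2 and between these for the others. Of 24 members tested for such a difference, the MCD effect was higher with LPS in 0 and lower in 1, against 7.12% and 9.99% of 11545 genes (17.1% in all). The median difference was −0.11 for members and 0.01 for all genes. Cd74 was next, at −0.14 (SE 0.05, adjusted p = 0.0823), and it and H2-K2 were the 2 members with an unadjusted p under 0.05.

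The rest of the nonclassical and class II genes did not pass. H2-T23 was at 158 and 157 CPM in LPS and 151 and 158 in MCD-LPS, H2-T24 at 143 and 147 against 129 and 144, and H2-Q4 at 102 and 121 against 106 and 114. H2-M3 was at 47.0 and 56.9 against 50.3 and 53.5 CPM. H2-Q1 was at 10.45 and 11.6 against 11.1 and 10.505, H2-Q2 at 9.73 and 12.0 against 9.17 and 10.18, H2-Q10 at 9.50 and 11.4 against 10.18 and 10.36, H2-Q5 at 4.89 and 5.51 against 5.44 and 5.25, and H2-T10 at 12.0 and 12.4 against 11.1 and 12.1. LPS replicate 2 was above LPS replicate 1 in each of H2-M3, H2-Q1, H2-Q2, H2-Q10, H2-Q5 and H2-T10. H2-Bl was at 1.05 and 2.46 CPM in LPS and 2.08 and 2.19 in MCD-LPS libraries, a log2 fold change of 0.43 (SE 0.38, adjusted p = 0.455). It was −0.18 without LPS replicate 1 and 1.03 (adjusted p = 0.0359) without LPS replicate 2.

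Among class II members, H2-DMa was at 15.6 and 17.9 CPM in LPS and 15.2 and 14.3 in MCD-LPS libraries, H2-DMb2 at 0.303 and 0.336 against 0.368 and 0.523, and H2-Oa at 2.82 and 3.23 against 2.70 and 3.86. H2-Ob was at 3.07 and 3.39 against 2.89 and 3.04 CPM, and H2-Ab1 at 0.512 and 0.802 against 0.785 and 0.597 (0.11, SE 0.32, adjusted p = 0.838). Ciita had 0 reads in all 4 libraries. H2-Ke6, the enzyme gene, was at 24.9 and 24.7 CPM in LPS and 20.4 and 23.97 in MCD-LPS libraries (−0.15, SE 0.08, adjusted p = 0.189), and was called lower (−0.25, adjusted p = 0.0471) without MCD-LPS replicate 2. The uncalled members ran from −0.16 to 0.45, with a median of −0.04 against 0.00 for all genes.

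**Figure D4:**
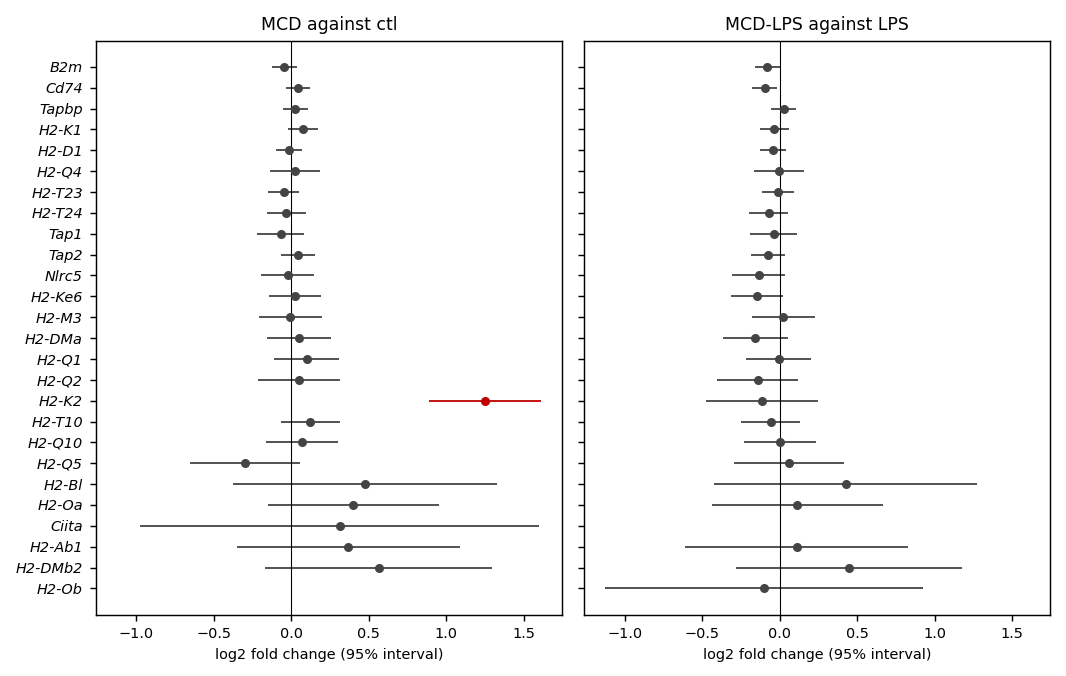
Log2 fold change of each tested member (25 per panel) after MCD, without LPS on the left and before LPS on the right, with 95% intervals from the limma fit and members ordered by their ctl level. H2-K2 on the left, in red, at 1.25 is the only member whose adjusted p was under 0.05, and the intervals widen towards the low members at the bottom.

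The largest differences in level lay between cells with and without LPS. They are given as levels with no test, because ctl and LPS libraries sit in tables that were normalized separately and carry different prefixes in the column headers. Among the 8 libraries used here, LPS and the table cannot be told apart. Of the 24 members kept in both tables, 20 had all 4 LPS-treated libraries above all 4 libraries without LPS and 0 had all 4 below. Over all 11545 genes kept in both tables the shares were 28.2% above and 39.1% below. The ratio of LPS to ctl level had a median of 2.26 over the members (range 1.09 to 3.14) and 0.959 over all genes. The 4 members whose libraries overlapped were H2-Bl, H2-DMb2, H2-K2 and H2-Ke6. Summed over all 50 members, the level was 2051 to 2098 CPM in the 4 libraries without LPS and 4423 to 4794 CPM in the 4 with LPS.

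Class I chains, their loading genes and NLRC5 all stood higher in LPS-treated cells. From ctl to LPS, B2m was 2.39-fold higher (ratios of single libraries 2.35 to 2.44), H2-K1 2.07-fold and H2-D1 1.97-fold. Tap1 was 2.31-fold, Tap2 1.91-fold and Tapbp 1.51-fold higher, and Nlrc5 1.87-fold. Per kilobase, B2m stood 5.17 to 5.48 times above the sum of H2-K1 and H2-D1 without LPS and 6.29 to 6.60 times above it with LPS. Heavy-chain reads that the H-2b reference did not capture would lower this sum, and their number was not measured. Tap1 overlaps Psmb9, an immunoproteasome subunit gene on the opposite strand, which was at 20.6 to 22.8 CPM without LPS and 40.0 to 41.8 CPM with LPS. The pair shares reads that cannot be split without strand.

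The nonclassical genes spread more widely. The highest ratio was that of H2-M3, 3.14-fold (single-library ratios 2.69 to 3.65), followed by H2-T24 at 3.02-fold, H2-T10 at 2.75-fold, H2-Q10 at 2.62-fold, H2-Bl at 2.53-fold (1.21 to 4.68) and H2-T23 at 2.33-fold. H2-Q2 was at 2.20-fold, H2-Q1 at 1.98-fold and H2-Q4 at 1.62-fold. H2-T23 and H2-T24 both overlap A930015D03Rik on the opposite strand. Among the members grouped as pseudogenes, H2-Q5 was 1.89-fold and H2-K2 2.75-fold higher, the latter with single-library ratios of 2.15 to 3.37.

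Class II genes split. Cd74 was 3.06-fold higher in LPS than in ctl libraries (3.01 to 3.11), the second highest ratio among the 24, and H2-Oa and H2-DMa were 2.92-fold and 2.38-fold higher. H2-Ob, which encodes the β chain of H2-O, had 6 and 4 reads in ctl and 9 and 2 in MCD libraries, and 132, 131, 118 and 122 reads in the 4 LPS-treated libraries. In level this was 0.136 and 0.0914 CPM in ctl and 3.07 and 3.39 CPM in LPS, 28.4-fold (single-library ratios 22.6 to 37.1). H2-Ab1 was 2.06-fold higher but stayed under 1 CPM. Ciita went the other way, with 69 reads over the 4 libraries without LPS and 0 over the 4 with LPS, at least 20.5-fold lower against a floor of 3 counts over the 4 LPS-treated libraries. Ciita and H2-Ob each passed the filter in 1 table only and are therefore not among the 24. Cd74, H2-Oa, H2-DMa, H2-Ab1 and H2-Ob were thus higher in the libraries where no Ciita read was found. Any link of their levels to Ciita was not tested. H2-DMb2 was 1.48-fold higher in LPS than in ctl libraries, but its libraries with and without LPS overlapped. Ciita overlaps Dexi on the opposite strand. H2-Ke6, not an MHC molecule, had the lowest ratio, 1.09-fold.

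**Figure D5:**
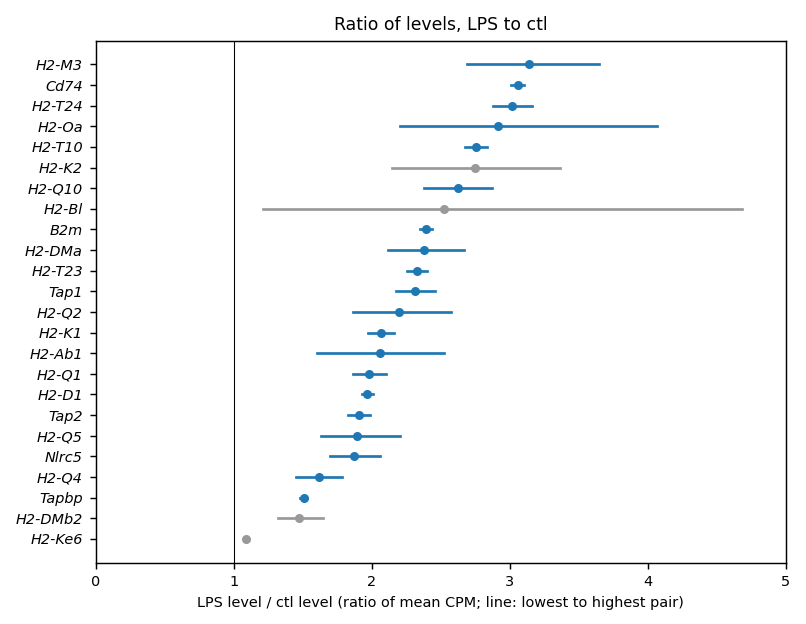
Ratio of the mean LPS level to the mean ctl level in CPM for the 24 members kept in both tables, as points, with lines from the lowest to the highest ratio of single libraries and a vertical line at 1. All 24 points lie above 1, from 1.09 for H2-Ke6 to 3.14 for H2-M3, and grey marks the 4 members (H2-Bl, H2-DMb2, H2-K2 and H2-Ke6) whose libraries with and without LPS overlapped.

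The order of levels in ctl cells, per kilobase of exon, was B2m (814 CPM per kb), Cd74 (212), H2-K1 (80.7), then Tapbp and H2-D1, both at 68.2. H2-Q4 (26.6), H2-T23 (23.4) and H2-T24 (22.04) followed, then H2-Ke6 (13.9), H2-M3 (11.5), Tap2 (8.78), Tap1 (6.13) and Nlrc5 (3.49). In LPS libraries H2-T24 (66.5) and H2-T23 (54.5) stood above H2-Q4 (43.0), and B2m (1949.7) and Cd74 (649.6) still led. H2-Ob moved from 0.0212 to 0.601 CPM per kb and stayed well under H2-Oa (2.15), the gene of its partner chain.

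In 4 lists of genes outside the complex that supply or control it, 1 of 50 tested was called after MCD alone and 14 of 51 (27.5%) in MCD-LPS against LPS, against 1.11% and 25.9% of all genes. By level, the shares of all genes to set beside these lists are the 28.2% above and 39.1% below given earlier. Of 14 class I supply genes (immunoproteasome subunits, peptide trimming, chaperones), 0 were called after MCD alone (median log2 fold change −0.06). In MCD-LPS against LPS 2 rose, against 12.9% of all genes, and 0 fell. They were the tapasin relative Tapbpl (0.36, SE 0.10, adjusted p = 0.0266) and the translocon subunit Sec61a1 (0.15, SE 0.05, adjusted p = 0.045). The median was 0.06 against 0.00 for all genes. Tapbpl lost its call without LPS replicate 2, MCD-LPS replicate 1 or MCD-LPS replicate 2, and Sec61a1 without any single library except MCD-LPS replicate 2. Tapbpl also lost it with DESeq2, and Sec61a1 with edgeR, TMM scaling, no filter or the replicate block. With only the 4 libraries of the table fitted, 6 of the 14 list genes called in this comparison lost their call (Tapbpl, Sec61a1, Sppl2a, Ctsl, Ctsz and Rfxap). By level, 5 of the 14 lay above in all LPS-treated libraries and 3 below, and the median log2 ratio of LPS to ctl was 0.03 (−0.06 over all genes). Psmb8, an immunoproteasome subunit gene beside Tap1, was 1.99-fold higher in LPS than in ctl libraries, and Tapbpl 1.79-fold lower.

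Class II supply genes, mainly lysosomal proteases, gave 0 calls of 11 after MCD (median −0.06). In MCD-LPS against LPS 3 of 12 rose and 0 fell, against 12.9% and 13% of all genes, with a median of 0.00. These were the proteases Sppl2a, which cuts the invariant chain stub (0.17, SE 0.04, adjusted p = 0.00879), Ctsl (0.16, SE 0.04, adjusted p = 0.0107) and Ctsz (0.13, SE 0.03, adjusted p = 0.0218). Ctsl lost its call without MCD-LPS replicate 2, and Ctsz without MCD replicate 1, MCD replicate 2, MCD-LPS replicate 1 or MCD-LPS replicate 2. By level, 1 of 11 lay above in all LPS-treated libraries and 7 below, with a median log2 ratio of −0.42. Ctsz was 1.76-fold, Lgmn 1.68-fold and Ifi30, the lysosomal thiol reductase, 1.64-fold lower in LPS than in ctl libraries. The protease gene Ctss was not lower, at a mean of 589 CPM in ctl and 601 CPM in LPS libraries.

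The factors that bind the SXY module and their cofactors (Hdac2, Crebbp and Kat2b) gave 0 calls of 11 after MCD (median 0.05). In MCD-LPS against LPS 3 rose and 2 fell, against 12.9% and 13% of all genes, with a median of 0.02. Nfyc, a subunit of the Y box factor NF-Y, rose by 0.64 (SE 0.07, adjusted p = 0.000319), from 27.4 and 30.0 CPM in LPS to 45.2 and 42.8 in MCD-LPS libraries. The coactivator gene Crebbp rose by 0.57 (SE 0.07, adjusted p = 0.000696) and Atf1 by 0.27 (SE 0.05, adjusted p = 0.00276). Rfx5, of the X box factor RFX, fell by 0.42 (SE 0.05, adjusted p = 0.000369), from 59.3 and 59.7 to 44.2 and 43.4 CPM, and Rfxap, its partner, by 0.36 (SE 0.09, adjusted p = 0.0148). Rfxap lost its call without LPS replicate 1 or MCD-LPS replicate 2. Levels of 1 of the 11 lay above in all LPS-treated libraries and of 6 below, with a median log2 ratio of −0.28.

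Of 14 interferon signalling genes tested (Ifnb1 was under the filter, at 0.0206 to 0.249 CPM), 1 rose after MCD alone, against 1.08% of all genes. This was Irf1, a transcription factor gene induced by interferon-γ and NF-κB, at 20.1 and 21.8 CPM in ctl and 32.2 and 34.2 CPM in MCD libraries (log2 fold change 0.67, SE 0.09, adjusted p = 0.00507). Its call was lost without ctl replicate 1, ctl replicate 2 or MCD replicate 2. In MCD-LPS against LPS, 1 rose and 3 fell, against 12.9% and 13% of all genes. Irf1 fell by 0.53 (SE 0.09, adjusted p = 0.00232), from 24.02 and 27.0 to 18.5 and 16.4 CPM. Stat2, which carries type I interferon signals, fell by 0.50 (SE 0.05, adjusted p = 0.000226) and Jak2 by 0.21 (SE 0.04, adjusted p = 0.00623). Ifngr2, a chain of the interferon-γ receptor, rose by 0.24 (SE 0.05, adjusted p = 0.00849), a call that was lost without MCD-LPS replicate 2. The list's median was 0.02 after MCD and −0.02 in MCD-LPS against LPS. The MCD effect on Irf1 differed with and without LPS by −1.20 (SE 0.12, adjusted p = 0.000466). Of the 14, 7 lay above in all LPS-treated libraries and 3 below (median log2 ratio 0.49), with Stat2 at 2.43-fold and Tyk2 at 1.93-fold of their ctl level.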

How the data were processed

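Libraries came from RNA freed of ribosomal RNA (Ribo-Zero) and a stranded KAPA kit, with no source used here saying if strand entered the counting. The submitters' processing notes list STAR 2.5.3, HTSeq 0.9.1, DESeq2 1.18.1 and mm10, while the study's methods name another quantifier and a later DESeq2. It is not settled which of them made the tables. The values used are a signal that the authors deposited per library, gene counts divided by a size factor within each table. The deposited workbook also holds the authors' comparisons (mean signal, log2 fold change and its standard error, a Wald score, p-value and adjusted p-value), which were not used. Another 12 columns of values, of other libraries, were not used. By inference, the ctl and LPS samples are the libraries found in the same tables as MCD and MCD-LPS. Sheets that hold only the other libraries were read for symbols alone.

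All deposited values (100%) were whole multiples of 1 read within 0.01, so the reads were recovered and levels given in CPM. Exon lengths, positions and overlaps are from GENCODE on mm10, and promoter sequences are from RefSeq on GRCm38.p6. The test was limma-trend (limma 3.58.1, R 4.3.3) on log2 of the value plus 1, for genes that reached 10 in at least 2 libraries of the table. All 8 libraries shared 1 estimate of the spread, with no replicate block. On this scale, fold changes of low genes come out too small. Groups were compared only within a table. Tests were two-sided, with Benjamini-Hochberg adjustment over all genes tested and a threshold of 0.05. The test was also run on simulated reads with the same setting of the spread for every gene and group. The groups here differed in spread, so that run cannot vouch for the fit. Alternatives were other pseudocounts and filters, only the 4 libraries of a table, TMM scaling, edgeR 4.0.16 and DESeq2 1.42.0 on the recovered reads, the replicate block, and leaving out each library.

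Every member kept by the filter is named with its values, and from the other lists the genes called in a comparison, at most 4 in each direction. Members, gene lists, motifs and promoters were chosen with earlier results of these data known.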

Additional observations from a re-analysis of the deposited data

Results flagged for a closer look

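H2-K2 stood out because its MCD effect differed between cells with and without LPS. The difference was −1.36 on the log2 scale (limma adjusted p = 0.00458, 2 libraries per group), from an effect of 1.25 in resting cells to −0.11 before LPS. In the list genes around the MHC, 11 of 50 tested (22%) differed in the same test, against 17.1% of 11545 genes. The MCD effect was lower with LPS for Irf1 (−1.20), Rfx5 (−0.49), Stat2 (−0.47) and Kat2b (−0.29), and higher with LPS for Nfyc (0.62), Crebbp (0.44), Atf1 (0.31), Ctsl (0.25), Sppl2a (0.21), Ifnar2 (0.20) and Ctsz (0.16). Irf1 was the one list gene called in both MCD comparisons, and in opposite directions. The calls of 4 of the 11 (Irf1, Nfyc, Rfx5 and Stat2) were kept without each library in turn. The other 7 all lost theirs without MCD replicate 1, 6 each without ctl replicate 1 or MCD replicate 2, 5 without MCD-LPS replicate 1, 4 without ctl replicate 2, 3 without MCD-LPS replicate 2 and 2 without LPS replicate 1. Ctsz also lost its call with no filter, TMM scaling, edgeR, DESeq2 and the replicate block, Ifnar2 with DESeq2 and the replicate block, and Sppl2a with DESeq2. MCD and MCD-LPS cells were harvested at different times after MCD, so LPS and time cannot be told apart in these differences.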

How the results depend on the processing

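Of 74 member results (25, 25 and 24 over the comparisons), 68 were not called under any setting run, 2 were called as reported and 4 were called only under another setting. Among the 68, 32 changed sign under some setting. The count of members called for MCD against ctl was 2 with no filter on low values (H2-DMb1 and H2-K2) and 0 to 1 when 1 library was left out. For MCD-LPS against LPS it was 0 to 2 when 1 library was left out. For the difference it was 2 with no filter on low values, and 1 when any library was left out. The value of H2-K2 in MCD-LPS against LPS ran from −0.42 without LPS replicate 1 to 0.19 without LPS replicate 2, and that of H2-Bl from −0.18 to 1.03 for the same libraries. The median LPS to ctl ratio was 1.98 to 2.36 when 1 library was left out, lowest without LPS replicate 2, and 2.32 with TMM scaling, which moved the median of all genes from −0.06 to −0.02 (log2). A fit of only the 4 libraries of a table called 450 genes higher and 115 lower for MCD and 819 and 972 for MCD-LPS against LPS, and DESeq2 called 200 and 15 for MCD. With no filter, 84 genes were higher and 1 lower for MCD. Same-numbered libraries did not deviate together (r of 0.04 for ctl and MCD, 0.03 for LPS and MCD-LPS), so they share only a number. With the replicate block, 1, 0 and 1 members were called, and over all genes 147 higher and 3 lower for MCD, 1538 and 1527 for MCD-LPS against LPS, and 798 and 1121 for the difference. Members under 1 CPM rest on few reads, and their intervals allow changes that this depth cannot show.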
